A study of Mus musculus with 16 samples.

Results

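The liver was set against the other 7 tissues of a mouse organ atlas, to find the genes that were enriched in liver, or missing from it, under both feeding states. The members were the 2 liver libraries of 16 libraries in all, chosen by their tissue label, and the other 14 libraries were the comparison. RNA was measured by short-read sequencing in liver and in kidney, spleen, lung, heart, muscle and both white and brown adipose tissue of male C57BL/6 mice. The mice were either fed ad libitum or fasted for 24 h. The mice were 12 weeks old on arrival and were kept for a minimum of 10 to 14 days before use. Each library held RNA from tissue of 3 mice pooled in equal parts, and per the study's methods all tissues of a feeding group came from the same 3 mice, so every tissue and feeding state had 1 library and no animal could be told apart from another. The labels name no transgene, deletion or agent, so all groups shared strain and sex and differed in tissue and feeding. The fed and fasted liver libraries were read side by side and were not compared with each other.

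Hepatocytes, the main cells of the liver, secrete most of the proteins of blood plasma, make bile acids from cholesterol, turn ammonia into urea and break down drugs and hormones. They also release glucose and ketone bodies for other organs, and they use liver forms of several enzymes for which muscle, fat or brain use other forms. Factors of the HNF4, FOXA, ONECUT and C/EBP families bind the control regions of many of these genes. In whole tissue, fewer cells of a type and less RNA per cell cannot be told apart, and the liver samples also held Kupffer cells, sinusoidal endothelium, stellate cells and bile duct cells.

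The 2 liver libraries held 23032656 (fed) and 24961373 (fasted) counts, within the range of 14245178 to 36069968 over all 16 libraries. They showed 13653 and 13493 genes with a CPM, the count scaled to the library total, of 1 or more, against 13058 to 17269 in the other libraries. The 10 most abundant genes took 15.7% and 15.8% of the liver counts, against 7.78% to 37.0% elsewhere. Tests used the 23580 genes that passed a filter on low counts, in a model with a term for each tissue and a term for fasting, so that the spread came from feeding effects that differed between tissues. With no replicate animals, p-values measured only the spread among these libraries.

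The labels were checked against the markers of hepatocytes first. Alb encodes serum albumin, the most abundant plasma protein, and lies at chr5:90460897-90476602 (GRCm38). It stood at 63761 CPM in fed and 52136 CPM in fasted liver, which was 6.38% and 5.21% of all counts. In the other 14 libraries Alb ran from 1.16 through a median of 55.9 to 123 CPM, so no other library came near the liver. The lower liver value was 423 times the highest of the others, and the fitted difference from the mean of the 7 tissues was 11.38 ± 0.48 (log2, SE; adjusted p against all 7 tissues 0.000129). Apob encodes the protein backbone of very low density lipoproteins and lies at chr12:7977648-8016835. It stood at 20066 and 24222 CPM in liver. In the other libraries it ran from 7.03 through a median of 25.6 to 1561 CPM, with the top value in fasted kidney. The ratio of the lowest liver to the highest other value was 12.9, and the fitted difference was 9.99 ± 0.23 (log2, SE; adjusted p 2.51e-05). All 10 hepatocyte markers were higher in liver, against 27.0% of all genes tested. They summed to 111210 and 109640 CPM, against 12.9 to 3473 CPM elsewhere. Of the 10, 8 met the rule for enrichment given below, against 1.81% of all genes tested. Hnf4a was among the other 2 and was shared with kidney.

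The stretches just before the start of genes that carried the comparison are shown because the counts of motifs and CG pairs given further on rest on such sequence. Each is 120 bases of RefSeq sequence (GRCm38.p6), read 5′ to 3′ on the strand of the gene, and ends before the gene start in both RefSeq and the deposited annotation. In the 5 genes of high liver level, capitals mark the letters GTTAAT on either strand or the letters TATAAA on the strand of the gene, the letters of the TATA box.
Alb, chr5:90460750-90460869, plus strand: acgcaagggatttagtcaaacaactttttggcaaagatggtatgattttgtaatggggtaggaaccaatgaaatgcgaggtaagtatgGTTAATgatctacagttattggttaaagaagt
Serpina1c, chr12:103904951-103905070, minus strand: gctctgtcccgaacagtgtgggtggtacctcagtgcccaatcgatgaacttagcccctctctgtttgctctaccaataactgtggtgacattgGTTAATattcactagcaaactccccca
Fgb, chr3:83049864-83049983, minus strand: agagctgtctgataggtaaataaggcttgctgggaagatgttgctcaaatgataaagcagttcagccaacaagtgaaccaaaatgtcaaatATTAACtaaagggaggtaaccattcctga
Apob, chr12:7977528-7977647, plus strand: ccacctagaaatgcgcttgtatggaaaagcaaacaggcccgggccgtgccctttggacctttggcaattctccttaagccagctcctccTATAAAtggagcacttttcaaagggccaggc
Cyp2a12, chr7:27028961-27029080, plus strand: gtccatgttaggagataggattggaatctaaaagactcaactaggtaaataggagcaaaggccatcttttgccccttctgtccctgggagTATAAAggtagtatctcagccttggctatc
In the 3 genes of low liver level, capitals mark each CG pair.
Limch1, chr5:66745707-66745826, plus strand: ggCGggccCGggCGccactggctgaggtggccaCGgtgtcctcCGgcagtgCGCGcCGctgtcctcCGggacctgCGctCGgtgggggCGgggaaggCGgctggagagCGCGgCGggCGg
Oxct1, chr15:4026263-4026382, plus strand: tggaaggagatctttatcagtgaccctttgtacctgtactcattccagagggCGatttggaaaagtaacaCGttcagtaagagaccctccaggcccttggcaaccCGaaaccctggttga
Parm1, chr5:91517495-91517614, plus strand: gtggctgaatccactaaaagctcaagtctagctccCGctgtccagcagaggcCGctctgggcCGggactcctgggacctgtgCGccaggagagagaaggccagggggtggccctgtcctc

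Against the mean of the 7 other tissues, 6360 genes were higher in liver (27.0% of those tested) and 5855 were lower (24.8%), by edgeR's quasi-likelihood test at a Benjamini-Hochberg adjusted p of 0.05. The median log2 difference of all genes was -0.13. Scaling by library totals alone moved that median by -0.74 and gave 3234 higher and 11649 lower genes, so directions below are relative to the bulk of genes. A fit with 1 liver term, which takes the 7 other tissues as replicates, gave 1202 higher and 498 lower genes. A stricter question was whether liver stood above, or below, each of the 7 other tissues. It stood above all 7 for 1196 genes (5.07%) and below all 7 for 687 genes (2.91%), the latter count falling to 427 without the fasted and 456 without the fed liver library.

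A gene was called liver-enriched when, besides standing above all 7 tissues, it had at least 1 CPM in both liver libraries and its lower liver value was at least 4 times the highest of the other 14, with counts below 3 set to 3. This held for 426 genes (1.81% of those tested), of which 325 were protein coding, 35 were long intergenic RNAs and 18 were antisense RNAs. Of the 426, 150 passed the filter on low counts only through the liver libraries, so their difference was fixed by it, and 276 passed in the other libraries alone. Over the 16 lists, 0 to 7 tested members of a list passed only through liver, apart from 11 of the major urinary proteins. The ratio had a median of 26.7, reached 10 in 286 genes and 100 in 139 genes. Together the 426 genes took 31.6% of the counts in fed and 31.3% in fasted liver, against 0.0877% to 0.493% in the other libraries. The 2 liver libraries lay within 2-fold of each other for 325 of the 426, with a median ratio of 1.41, and over 4-fold apart for 20. At the edge of the rule, Tm7sf2 had a ratio of 4.01 and was in, and Fmo5 had 3.98 and was out. The mirror rule, standing below all 7 tissues with at least 1 CPM in all 14 other libraries and the lowest of them at least 4 times the higher liver value, called 226 genes missing from liver (0.958%), of which 214 were protein coding. Their ratios were smaller, with a median of 6.03 and a highest value of 29.7, and 41 reached 10. Pbxip1 was just inside at 4.01 and Cpxm1 just outside, marginally under the limit. This count leaned on scaling: with CPM rescaled by TMM factors 108 genes were missing, 100 of them among the 226, while 425 of the 426 enriched genes stayed enriched.

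The genes with the highest ratios among those at 10 CPM or more in liver joined bile acid genes, drug-metabolising enzymes, plasma proteins and major urinary proteins. Cyp7a1, the rate-limiting enzyme of bile acid synthesis (chr4:6265612-6275633), stood at 131 CPM in fed and 134 CPM in fasted liver. The other libraries ran from 0 through a median of 0.0614 to 0.219 CPM, the last resting on 6 counts in fasted white adipose, and the ratio was 597. Cyp7a1 passed the filter on low counts only through liver, so these values are a description. Slc10a1, the transporter that takes bile acids up from blood, stood at 507 and 538 CPM against 0 to 1.08 CPM. Slco1b2, an organic anion transporter of the same membrane, stood at 1473 and 1208 CPM against 0 to 2.65 CPM. Both were thus over 400 times above every other library, at ratios of 468 and 456. Slc27a5, the ligase that activates bile acids before conjugation, stood at 826 and 784 CPM against 0.222 to 1.57 CPM, and its fitted difference was 10.87 ± 0.17 (log2, SE; adjusted p against all 7 tissues 4.38e-08). Rdh7, a short-chain dehydrogenase of retinoid and steroid metabolism, stood at 1058 and 903 CPM against 0 to 1.86 CPM.

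Among the cytochrome P450 enzymes, Cyp2c37 stood at 271 and 308 CPM against 0 to 0.51 CPM elsewhere, a ratio of 531. Cyp2a12, whose TATAAA letters are in capitals above, stood at 526 and 505 CPM against 0 to 0.971 CPM, a ratio of 520. Hpx, the haem carrier haemopexin, stood at 2347 and 2250 CPM against 0.174 to 4.98 CPM. Plg, the precursor of the clot-dissolving protease plasmin, stood at 2156 and 1746 CPM against 0.139 to 3.85 CPM. For each of these 4 genes the groups were apart by a factor of more than 400. The 15 genes also held 3 major urinary protein genes, described with their family, of which Mup13 and Mup11 had the highest ratios of all, Mup13 having passed the filter on low counts only through liver. Among the rest were AC157910.3, a long intergenic RNA at 609 to 621 CPM in liver and at most 1.14 CPM elsewhere, and ENSMUSG00000118516.1, a gene without a symbol at 185 to 200 CPM in liver and at most 0.291 CPM elsewhere, which also passed only through liver.

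**Figure D1:**
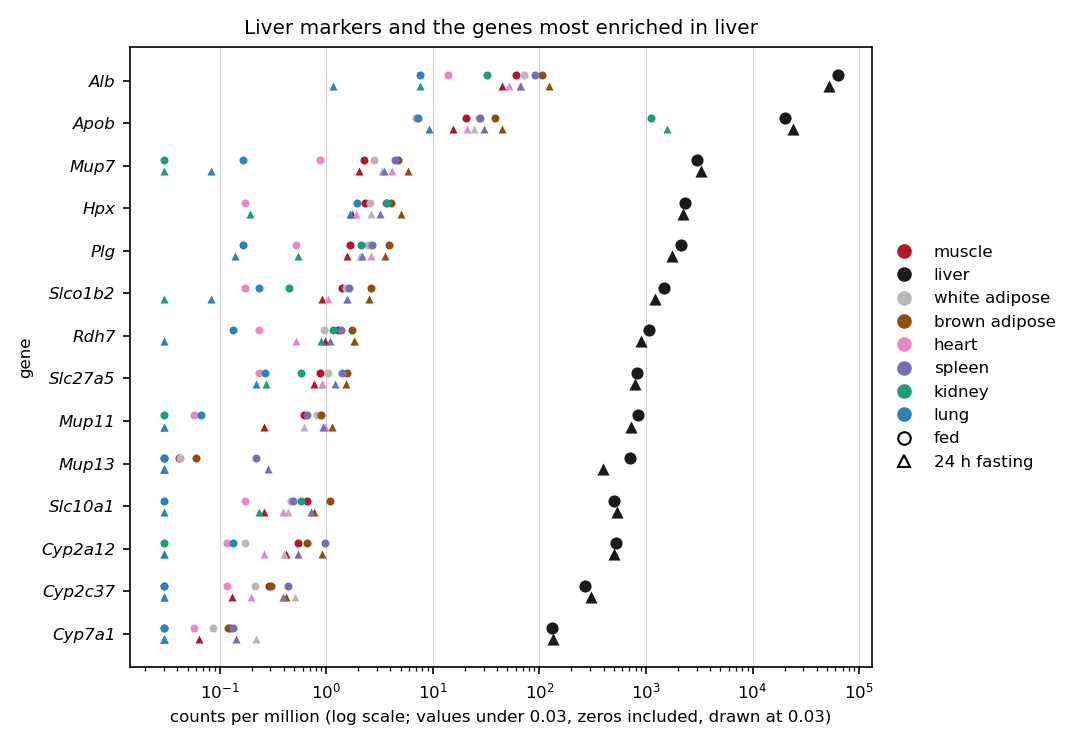
CPM (log axis, values under 0.03 drawn at 0.03) of Alb, Apob and 12 of the 15 genes with the highest ratio of liver to the highest other library among genes at 10 CPM or more in liver, 1 point per library, circles for fed and triangles for fasted mice. Both liver points, in black, lie to the right of all 14 others for each gene, and the kidney points of Apob lie closest.

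The plasma carriers had the largest summed level in liver of the 16 lists. For this and each list below, the shares among all genes are 27.0% higher, 24.8% lower, 5.07% above all 7 tissues and 1.81% enriched. The TPM scale divides each count by gene length and so allows genes to be set side by side. Of 29 tested plasma carrier and binding proteins, 29 were higher in liver, 27 stood above all 7 tissues and 21 were enriched, with a median log2 difference of 9.36 against -0.13 over all genes tested. The list held Amdhd1, an enzyme of histidine breakdown and no carrier, which is counted here and again among the amino acid enzymes. The members summed to 120760 TPM in liver and to at most 9009 TPM, in white adipose. Alb alone stood at 64661 TPM in fed and 55851 TPM in fasted liver. Ahsg, the calcium-binding glycoprotein fetuin-A, stood at 5579 and 6206 CPM against 0.0388 to 13.04 CPM elsewhere. Trf, the iron carrier transferrin, stood above all 7 tissues at 12630 and 8571 CPM but was not enriched, since fasted white adipose had 3463 CPM. Hp, haptoglobin, was higher than the mean of the 7 tissues by 6.04 ± 0.26 (log2, SE) with 1532 to 1763 CPM in liver, yet fed white adipose had 2542 CPM.

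The serpins, which block proteases by trapping them, were mostly higher in liver. Of 19 tested, 16 were higher and 3 lower in liver, and 13 were enriched, with a median log2 difference of 9.59. Serpina3k stood at 10286 and 11401 CPM in liver against 0 to 23.4 CPM elsewhere. Serpina1e, a copy of alpha-1-antitrypsin, stood at 6936 and 4124 CPM against 0.0277 to 10.99 CPM. The Serpina1 and Serpina3 copies are near identical, so reads may have been shared among them and the level of each copy is uncertain. The 3 lower members included Serpinh1, a collagen chaperone, at -2.92 ± 0.30, and Serpine2, a thrombin inhibitor of tissues, at -1.28 ± 0.31 (log2 difference, SE).

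Coagulation genes were mostly higher in liver. Of 27 tested, 20 were higher, 7 lower and 15 enriched, against 27.0% higher, 24.8% lower and 1.81% enriched among all genes, with a median log2 difference of 8.63. Fgb, the beta chain of fibrinogen, stood at 4451 and 3064 CPM in liver against 0.0554 to 8.79 CPM. Its partner chains Fga (4991 and 3216 CPM) and Fgg (3521 and 2188 CPM) peaked outside liver in fasted kidney, at 104 and 23.4 CPM. Prothrombin, F2, stood at 1287 to 1468 CPM against 0.232 to 3.30 CPM. The 7 lower members were Tfpi, F3, Vwf, Thbd, Plau, Plat and F13a1, with log2 differences from -0.76 (Tfpi) to -4.99 (F13a1). Thbd, the thrombin receptor of endothelium, stood at 4.86 to 6.49 CPM in liver against 14.6 to 837 CPM, and Vwf, the platelet-binding protein of vessel walls, at 15.1 to 15.2 CPM against 8.24 to 886 CPM. Plau, which encodes urokinase, met the rule for missing genes, but its ratio fell below 4 after TMM rescaling.

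Of 27 complement genes tested, 24 were higher in liver, 2 lower and 1 not called, and 11 were enriched, with a median log2 difference of 4.87, against 27.0% higher, 24.8% lower and 1.81% enriched among all genes. C3, the central component, stood at 7906 and 7995 CPM in liver against 40.5 to 1558 CPM. C8b, a chain of the membrane attack complex, stood at 268 to 414 CPM against 0 to 0.723 CPM, and Mbl2, a mannose-binding lectin, at 143 to 245 CPM against 0 to 0.574 CPM. C4b stood at 1540 and 987 CPM, and fed white adipose reached 1290 CPM. The C1q chains C1qa, C1qb and C1qc, products of macrophages, were called higher by 0.41 to 0.56 (log2), but all 3 turned lower when libraries were scaled by their totals. The 2 lower members were C7 and Cfd, known as adipsin, which reached 8052 CPM in fed white adipose against 9.73 to 13.2 CPM in liver. White adipose had a larger TPM sum over this list than liver, 29183 against 9286.

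Of 28 apolipoproteins and genes of lipoprotein handling, 27 were higher in liver and 15 were enriched, with a median log2 difference of 8.81. Apoa1, the main protein of high density lipoprotein, stood at 5516 and 7549 CPM against 0.222 to 14.6 CPM. Apoa2 stood at 3451 and 3768 CPM against 0.0998 to 9.20 CPM. Per length, Apoa2 had the higher level of the pair, at 15264 and 17604 TPM, and Apob, with its very long transcript, stood at 3420 and 4361 TPM. Apoe stood above all 7 tissues at 12016 to 12931 CPM, with 3532 CPM in fasted white adipose. The only lower member was Lpl, the lipase that frees fatty acids at muscle and fat capillaries, at 28.2 to 38.6 CPM in liver against 34.7 to 6308 CPM elsewhere.

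Of 25 genes of bile acid synthesis and transport, 23 were higher, 11 were enriched and 2 were not called, with a median log2 difference of 7.65, or 8.12 without Slc51a, which had no count in liver. Cyp7a1 and Abcg8 passed the filter on low counts only through liver, and the other 23 included 21 higher and 9 enriched. Cyp8b1, which directs synthesis towards cholic acid, stood at 383 to 1212 CPM in liver against 0.0333 to 1.97 CPM. Abcb11, the pump that exports bile salts into bile, stood at 339 to 1106 CPM against 0 to 2.10 CPM. The 2 members not called, Slc51a and Slc51b, encode the exporter of bile acids on the basolateral side of gut and kidney cells. They had at most 0.174 CPM in liver and reached 44.3 and 20.3 CPM in fed kidney. Liver transporters shared with kidney included Abcc2, with 856 to 935 CPM in liver and up to 693 CPM in kidney, and Slco1a1, with 340 to 790 CPM in liver and up to 655 CPM in kidney.

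All 45 genes of the urea cycle and amino acid breakdown were higher in liver, 33 stood above all 7 tissues and 17 were enriched, with a median log2 difference of 8.09. Cps1, which fixes ammonia for urea, stood at 6296 and 12589 CPM in liver against 0 through a median of 7.99 to 17.7 CPM. Otc, which joins carbamoyl phosphate to ornithine, stood at 309 to 487 CPM against 0 to 0.772 CPM. The cycle was not of 1 pattern: Ass1, which joins citrulline and aspartate, had 1570 to 2377 CPM in liver and 1161 to 1808 CPM in kidney. Bhmt, which remethylates homocysteine, stood at 2629 and 7799 CPM against 0.0277 to 10.1 CPM. Mat1a, which makes S-adenosylmethionine, stood at 2019 and 11283 CPM against 0.0388 to 15.4 CPM.

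Drug metabolism was covered by the cytochrome P450 list and a list of conjugating enzymes. Of 48 P450 genes tested, 43 were higher, 3 lower and 23 enriched, with a median log2 difference of 9.26. Of the 48, 7 passed the filter on low counts only through liver, and the other 41 included 36 higher and 18 enriched, with a median of 8.60. Cyp3a11 stood at 3327 to 4221 CPM in liver against 0 to 7.41 CPM, and Cyp1a2 at 195 to 597 CPM against 0 to 1.26 CPM. Cyp2e1, which oxidises ethanol, stood above all 7 tissues at 5477 and 8507 CPM but reached 3784 CPM in fasted white adipose. Other P450 genes had higher levels outside liver, such as Cyp2j5 at up to 1957 CPM in fed kidney against 542 to 837 CPM, and Cyp2f2 at up to 1799 CPM in fasted lung against 731 to 1041 CPM. The 3 lower members were Cyp4b1, Cyp2s1 and Cyp1b1, at -1.59, -1.79 and -3.40 (log2). Of 59 conjugating enzymes and drug transporters, 56 were higher, 1 lower (Fmo2, which reached 1955 CPM in fasted lung) and 18 enriched, with a median log2 difference of 5.50. Ces1c, a carboxylesterase of plasma, stood at 2342 and 1551 CPM against 0.0277 to 5.26 CPM. Ugt1a1, which conjugates bilirubin, stood at 215 to 249 CPM against 0.0581 to 3.49 CPM. The Cyp2c, Cyp3a, Ugt and Ces genes are families of close copies, so the level of a single copy is uncertain.

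The major urinary proteins, pheromone carriers that male mouse liver secretes for the urine, summed to 35613 TPM in liver and to between 0.551 TPM (kidney) and 89.3 TPM (brown adipose) elsewhere. Of 22 genes, 20 passed the filter on low counts, 11 of them only through the liver libraries, so that a difference in those 11 was fixed by the filter. The other 9 passed it in the 14 other libraries as well, and these 9 were enriched. Mup13, one of the 11, stood at 713 and 399 CPM in liver, while the median of the other libraries was 0 and the highest was 0.287 CPM, a ratio of 1387. Mup11 stood at 837 and 729 CPM against 0 to 1.12 CPM, and Mup7 at 3044 and 3298 CPM against 0 to 5.90 CPM, both among the 9. Mup3 had the highest level per length in the family, at 16589 and 12769 TPM. The copies are near identical, so the sum of the family is firmer than the level of any copy, and fitted log2 values are not given since they depend on the small number added to zero counts.

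Many enriched genes lay next to each other. Of the 426 genes, 187 (43.9%) had an enriched gene as the neighbouring tested gene, against 3.28% of all tested genes that had one, and 24 runs of 3 or more, with at most 1 other tested gene between enriched ones, held 128 genes. The longest was the Mup cluster at chr4:59964294-62150863, where 26 of 31 tested genes were enriched. The serpin cluster at chr12:103614786-104086724 held 11 of 14, from Serpina10 to Serpina4-ps1, and the Cyp2c cluster at chr19:39269405-40187333 held 10 of 11. The 3 fibrinogen genes at chr3:83007724-83049863 formed a run of 3 of 3, and Apoa1, Apoc3 and Apoa5 made up 3 of 4 tested genes at chr9:46228580-46271919. Of the 226 missing genes, 6 (2.65%) had a missing neighbour, against 1.91% of all tested genes. Of the 426, 150 passed the filter on low counts only through liver. Among these were 11 Mup genes of the longest run and Cyp2c38, Cyp2c39 and Cyp2c40 of the Cyp2c run. For such genes the filter fixed the difference, and the share of neighbours without them was not counted. These figures are descriptions, and neighbours of like sequence may share reads.

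**Figure D2:**
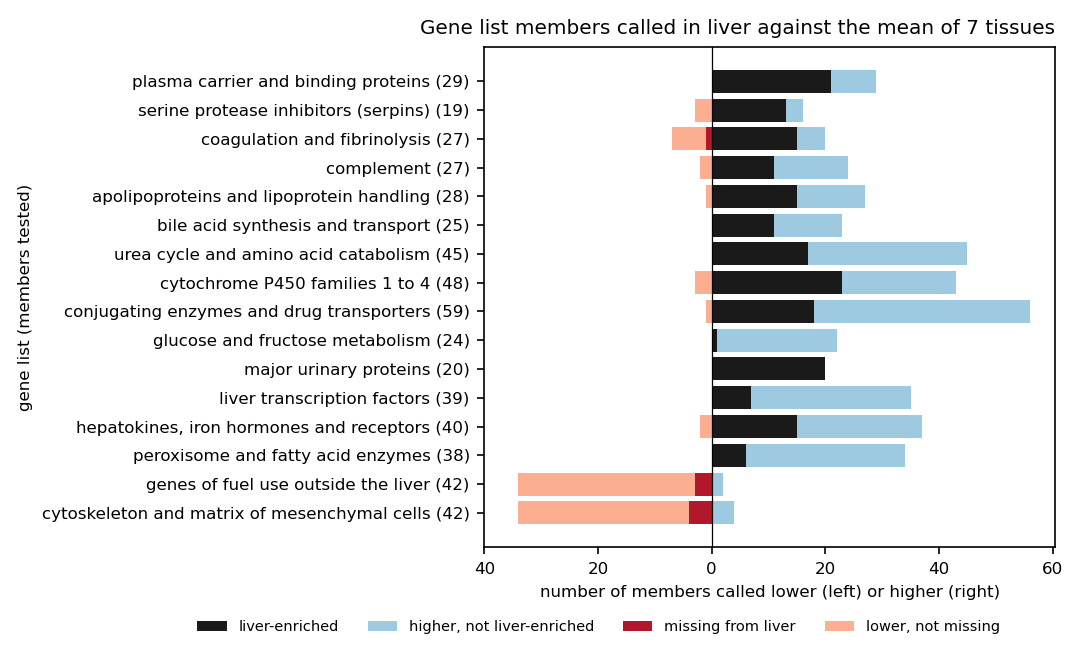
Number of tested members of each gene list that were called higher (right) or lower (left) in liver than the mean of the 7 other tissues, with the number tested in brackets. Liver-enriched members are in black, among them 1 of 24 genes of glucose and fructose metabolism, although 22 were higher, and the 20 major urinary proteins include 11 that passed the filter on low counts only through liver.

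Most transcription factors of the liver were higher there but present elsewhere as well. Of 39 transcription factors linked to liver, 35 were higher and 4 not called, 16 stood above all 7 tissues and 7 were enriched, with a median log2 difference of 3.72, against 27.0% higher, 5.07% above all 7 and 1.81% enriched among all genes. Zbtb20, at 0.43 above the mean of the 7 tissues (log2), turned lower when libraries were scaled by their totals. Foxa3, a forkhead factor that opens chromatin, stood at 61.7 and 66.4 CPM in liver against 0 to 0.499 CPM, a ratio of 124. Onecut2 stood at 224 to 263 CPM against 0 to 0.706 CPM, and Onecut1, also known as HNF6, at 67.4 and 16.4 CPM against 0 to 0.262 CPM. Onecut1 passed the filter on low counts only through liver, as did Nr1h5, and the other 37 factors included 33 higher and 6 enriched. The nuclear receptor Nr1i3 (CAR), a sensor of foreign compounds, stood at 170 to 406 CPM against 0 to 1.28 CPM. Its relative Nr1i2 (PXR) stood at 64.8 to 95.3 CPM against 0 to 6.87 CPM. The other 2 enriched factors were Creb3l3 at 248 to 500 CPM, a membrane-bound factor of lipid metabolism, and Nr5a2 at 92.0 to 107 CPM, a nuclear receptor of bile acid synthesis. Other factors named for liver were found elsewhere as well: Gata4 reached 120 CPM in fed heart against 20.1 to 27.0 CPM in liver, and Cebpa 765 CPM in fed brown adipose against 297 to 307 CPM.

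Of 40 hepatokines, iron hormones and receptors, 37 were higher in liver, 2 lower (Bmp6 and Smpdl3a) and 15 enriched, with a median log2 difference of 5.03, against 27.0% higher, 24.8% lower and 1.81% enriched among all genes. Of the 40, 5 passed the filter on low counts only through liver (Hamp2, Fgf21, Lect2, Inhbc and Inhbe), and the other 35 included 32 higher and 11 enriched. Hamp, which encodes the iron hormone hepcidin, stood at 263 and 334 CPM against 0 to 1.996 CPM. Tfr2, a sensor of iron-loaded transferrin, stood at 362 to 412 CPM against 0.0581 to 2.95 CPM, whereas Tfrc, the common transferrin receptor, was not called at -0.62 ± 0.76 (log2, SE). Inhbc and Inhbe, subunits of activins C and E, stood at 44.6 to 55.2 CPM and 41.7 to 118 CPM against at most 0.14 and 0.351 CPM, values given as a description. Asgr1, a subunit of the receptor that clears glycoproteins, stood at 320 to 328 CPM against 0 to 4.09 CPM. Igf1 was higher but not enriched, at 675 to 737 CPM against up to 415 CPM in fed white adipose.

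Genes of sugar and fat metabolism were mostly higher in liver. Of 24 genes of glucose and fructose metabolism, 22 were higher and 2 not called (Pfkl among them), 4 stood above all 7 tissues and only Gckr was enriched, with a median log2 difference of 4.26. Among all genes 27.0% were higher and 1.81% enriched. Gckr, a nuclear regulator of sugar metabolism, stood at 130 to 232 CPM against 0.0998 to 1.05 CPM. Of 38 peroxisome and fatty acid genes, 34 were higher, 4 not called and 6 enriched, with a median log2 difference of 3.64. Fabp1, the liver fatty acid binding protein, stood at 3820 and 2720 CPM against 0.846 to 7.59 CPM, and Uox, the urate oxidase that rodents keep, at 1208 to 1756 CPM against 0.0388 to 10.7 CPM. Fasn, Acacb, Dao and Hao2 were not called. Hao2, a kidney oxidase, had no count in liver, so the lack of a call for it does not mean equal levels.

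Kidney was the tissue that kept most genes from being enriched. Dropping both kidney libraries raised the enriched genes from 426 to 623, with 197 added, whereas dropping another tissue added 4 (muscle), 8 (heart), 9 (brown adipose), 23 (white adipose), 27 (lung) or 38 (spleen). Of the 38, 10 were listed markers of pancreatic acinar cells, such as Pnlip, a digestive lipase, with 19.4 to 45.4 CPM in liver, 124 CPM in fed and 0.0719 CPM in fasted spleen. Of the 197 added without kidney, 44 were at or above the liver level in both kidney libraries. G6pc, the phosphatase that frees glucose, had 420 to 487 CPM in liver and 415 to 572 CPM in kidney, with at most 3.24 CPM in the rest. Fbp1, an enzyme of glucose synthesis, had 625 to 1074 CPM in liver and 915 to 952 CPM in kidney, and Slc2a2, the low-affinity glucose transporter, 278 to 372 CPM and 248 to 272 CPM. The factor Hnf4a ran along with them, at 620 to 964 CPM in liver, 950 to 954 CPM in kidney and at most 58.3 CPM in the rest. For G6pc, Fbp1 and Hnf4a the 2 liver values and the 2 kidney values overlapped.

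The genes missing from liver were a mixed set, and 8 of the 226 were on any of the 16 lists. Together they took 0.0566% and 0.0512% of the liver counts against 0.844% to 3.15% elsewhere. The 15 with the highest ratios among genes at 5 CPM or more in every other library stayed missing after TMM rescaling. Parm1, a membrane mucin, had 0.434 CPM in fed and 0.441 CPM in fasted liver. The others ran from 13.1 (fasted kidney) through a median of 31.3 to 367 CPM (fed brown adipose), and the fitted difference was -5.90 ± 0.45 (log2, SE; adjusted p against all 7 tissues 0.000135). Limch1, an activator of non-muscle myosin, had 2.87 and 3.08 CPM in liver against 67.0 to 1257 CPM, with a fitted difference of -5.12 ± 0.20. The promoters of both are shown above. Ly6c1, an antigen of endothelium and monocytes, had 0.434 and 0.841 CPM in liver against 23.2 to 214 CPM. The Notch ligand Jag2 had 0.217 and 0.28 CPM, resting on 5 and 7 counts, against 5.43 to 46.9 CPM. Sema3g, a semaphorin of arterial endothelium, had 0.478 and 0.681 CPM against 11.6 to 334 CPM. Liver lay below all 14 libraries for each of these genes, by ratios of 17.1 to 29.7 on library totals and of 7.45 (Sema3g) to 17.5 (Parm1) after TMM rescaling.

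The 15 also held mitochondrial genes of fuel use. Oxct1 encodes the transferase that lets tissues burn ketone bodies (chr15:4026383-4155344). It had 6.25 CPM in fed and 4.37 CPM in fasted liver against 85.9 (fasted spleen) through a median of 308 to 1679 CPM (fed heart), with a fitted difference of -5.28 ± 0.20 (log2, SE; adjusted p 1.21e-06). Slc25a4, the ADP/ATP carrier of muscle and heart, had 5.99 and 6.01 CPM in liver against 80.1 to 4918 CPM. Acss1, which activates acetate in mitochondria, had 1.26 and 0.961 CPM against 15.9 to 802 CPM. The remaining genes of the 15 were Crispld2, Lynx1, Tspan3, Mcf2l, Klhdc1, Egflam and Tspan13, at ratios of 12.7 to 15.4 on library totals and of 5.54 (Mcf2l) to 11.9 (Tspan13) after TMM rescaling.

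**Figure D3:**
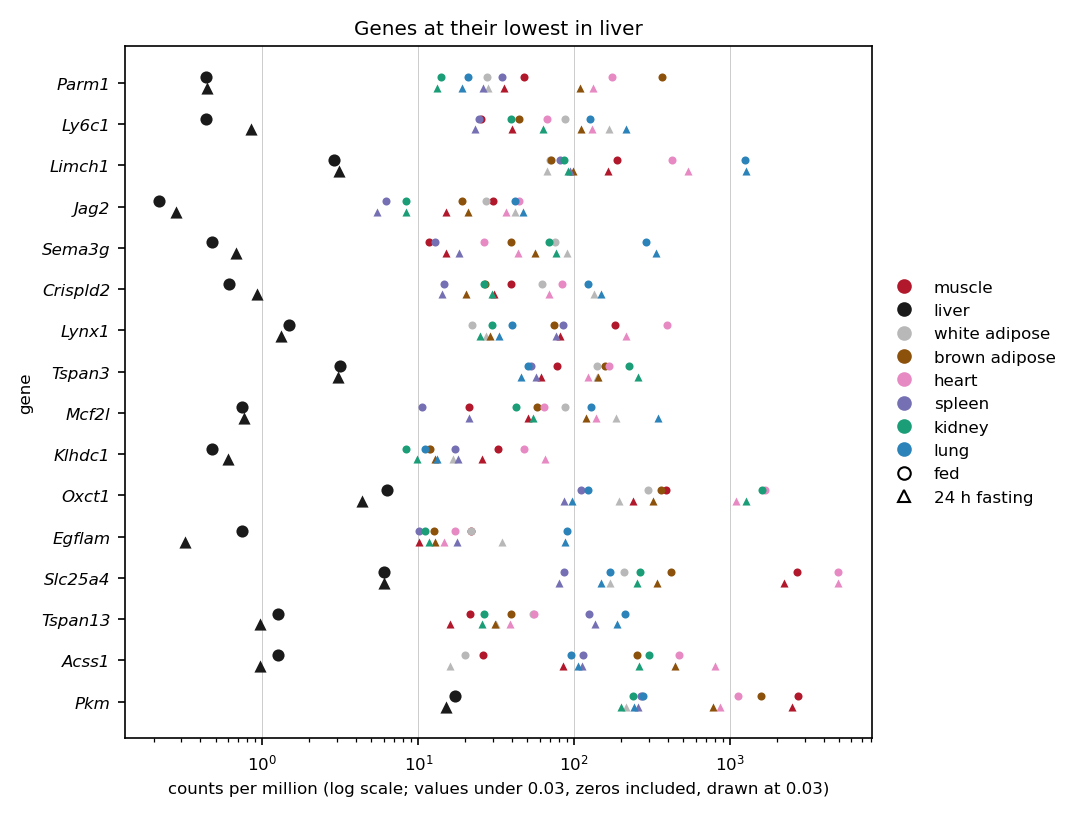
CPM (log axis) of the 15 genes with the highest ratio of the lowest other library to liver among genes at 5 CPM or more in every other library, with Pkm, 1 point per library, circles for fed and triangles for fasted mice. Both liver points, in black, lie to the left of all 14 others in every row, from 0.217 CPM for Jag2 to 17.2 CPM for Pkm.

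A list of genes of fuel use outside the liver moved the other way from the liver lists. It was chosen for that use, with earlier results of these data known, so its counts are a description. Of 42 tested, 34 were lower, 2 higher and 6 not called, against 24.8% lower among all genes, with a median log2 difference of -2.77. Of these, 3 met the rule for missing genes, among them Pkm and Oxct1. The list summed to 485 TPM in liver, against 1171 TPM in spleen and 57722 TPM in muscle at the ends of the range. Fabp3, the fatty acid binding protein of heart, had 0.347 and 0.401 CPM in liver against 0.472 to 3484 CPM, and Ldhb, the heart form of lactate dehydrogenase, 2.34 and 1.32 CPM against 4.86 to 1103 CPM. The 2 higher members were Aldoc, at 7.21 to 13.1 CPM with up to 20.8 CPM in fasted kidney, and Slc25a20, the carnitine carrier, at 96.9 to 206 CPM with up to 622 CPM in fasted brown adipose. Ckmt1, a creatine kinase, had no count in liver, and leaving it out gave a median of -2.75. Ckm, the muscle creatine kinase, was called lower at -0.82 ± 0.25, but the difference was 0.68 without both muscle and 0.07 without both heart libraries.

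Many metabolic steps are run by a liver form and by other forms of the same enzyme or carrier. Of 20 steps with a known liver form, that form was higher in liver in 19, lower in 0 and not called in 1 (Pfkl). Of 41 other forms at 22 steps, 31 were lower in liver, 5 higher and 5 not called, against 24.8% lower and 27.0% higher among all genes. For pyruvate kinase, Pkm had 17.2 and 15.1 CPM in liver against 199 to 2713 CPM, with a fitted difference of -4.27 ± 0.25 (log2, SE; adjusted p 2.23e-05). The liver form Pklr had 202 and 41.0 CPM in liver, 0 to 41.5 CPM elsewhere, and 94.8% and 80.7% of the TPM of the pair against at most 24.4%. The liver form of methionine adenosyltransferase, Mat1a, held 97.5% and 99.5% against at most 9.90%. The fatty acid transport set listed Slc27a5, Slc27a1, Slc27a3 and Slc27a4 and no other gene. Within it Slc27a5 held 97.0% and 93.9% against at most 4.95%, and these shares depend on which genes were listed.

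Hk1, a hexokinase of most tissues, was lower than in all 7 tissues, at 4.86 and 4.33 CPM against 6.85 to 196 CPM (adjusted p 0.0109). At other steps the liver form was shared. Cpt1a held over 99.0% in liver and up to 99.4% in fed kidney. Cox6a1 held 99.7% and 99.9% in liver and up to 99.8% in fasted brown adipose. For phosphofructokinase the share of Pfkl, 43.7% and 39.3% in liver, lay within the 0.085% to 59.6% of the other libraries. Both other forms were lower in liver, Pfkm at -1.65 (log2) against the mean of the 7 tissues, and Pfkp, at 4.41 to 5.43 CPM, below all 7 tissues (adjusted p 0.0017). The other forms that were higher in liver were Hk3, Aldoc, Pfkfb2, Slc27a4 and Lipg.

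**Figure D4:**
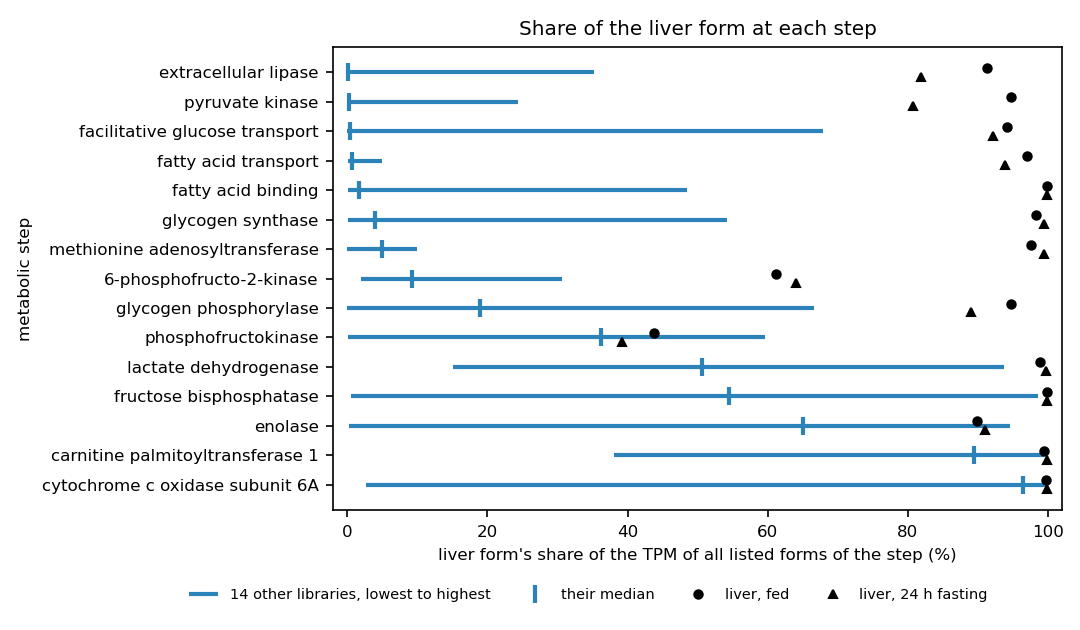
Share of the liver form in the summed TPM of all listed forms at each of 15 metabolic steps (%), with both liver libraries in black and the lowest, median and highest of the 14 other libraries in blue. The liver points lie right of the whole blue range for steps such as methionine adenosyltransferase (97.5% and 99.5% against at most 9.90%) and inside it for phosphofructokinase.

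Genes of the cytoskeleton and matrix of mesenchymal cells were mostly lower as well. Of 42 tested, 34 were lower, 4 higher and 4 not called, 14 lay below all 7 tissues, and the median log2 difference was -2.53. Among all genes, 24.8% were lower and 2.91% lay below all 7 tissues. Acta2, Myl9, S100a6 and Mgp met the rule for missing genes, and Mgp alone of these lost it after TMM rescaling, at a ratio of 2.58. S100a6, a calcium-binding protein, had 0.841 to 1.43 CPM in liver against 12.6 to 156 CPM, and Cav1, the coat protein of caveolae, 6.61 to 7.90 CPM against 29.0 to 3238 CPM. Other members went the opposite way. Fn1, fibronectin, which hepatocytes secrete into plasma, was above all 7 tissues at 1940 to 2329 CPM against 38.9 to 1106 CPM. Cald1, at 253 to 284 CPM against up to 201 CPM, and S100a10 were higher too, and Tgfbi was higher by 0.71 (log2) but turned lower when libraries were scaled by their totals. Dcn and Lum, proteoglycans of fibroblasts, were not called, at 0.05 ± 0.10 and 0.13 ± 0.21 (log2, SE).

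The sequence before the start of a gene differed between the classes. RefSeq promoters within 500 bases of the deposited gene start were found for 249 of 426 enriched genes, 138 of 226 missing genes and 12216 of 23580 tested genes. In the 250 bases before the start, enriched genes had a median of 3 CG pairs and missing genes 15.5, against 14 over all tested genes. At least 10 CG pairs stood in 11.2%, 71.0% and 64.6% of them, and the median share of G and C was 49.2%, 62.8% and 58.8%. The missing genes were thus nearer to all tested genes than the enriched genes were. The sequences printed above span this range, from 0 CG pairs in Fgb and Cyp2a12 to 17 in Limch1 within 120 bases, with 3 in Oxct1.

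Short motifs were counted on both strands in the same 250 bases, with overlaps between motifs allowed. GTTAAT was in 39 enriched promoters (15.7%), 4 missing ones (2.90%) and 4.52% of all. Besides Alb, Serpina1c and Fgb it was in Fga, Fabp1, Gc, Vtn and Ugt1a1. TTGCNNAA, for C/EBP factors, was in 52 enriched (20.9%), 5 missing (3.62%) and 8.37% of all. TGTTTAC, for FOXA factors, was in 13 (5.22%), 1 (0.725%) and 2.46%, and CAAAGTCCA, for HNF4, in 8 (3.21%), 0 and 0.442%. TATAAA on the strand of the gene, 20 to 50 bases before the start, was in 16 enriched (6.43%), 1 missing (0.725%) and 1.85% of all. Promoters of A- and T-rich sequence hold such letters more often, gene copies share theirs, and a match is not a shown binding site, so these are descriptions without a test.

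Levels of liver-enriched genes outside liver were examined where the liver level was high. For the 226 enriched genes with a mean of 100 CPM or more in liver, the median level was 0.0346% (fasted lung) to 0.258% (fasted brown adipose) of the liver mean in the other 14 libraries. Between 0 and 53 of the 226 had no count in a library, the most in fasted kidney. In fasted brown adipose Alb stood at 0.213% and Apob at 0.201% of liver, and in fed muscle at 0.104% and 0.0934%. Kidney was apart for Apob, at 4.996% (fed) and 7.05% (fasted), while Alb there stood at 0.0556% and 0.0131%. These shares set the upper end of the ratios given above, and where these counts came from was not tested.

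**Figure D5:**
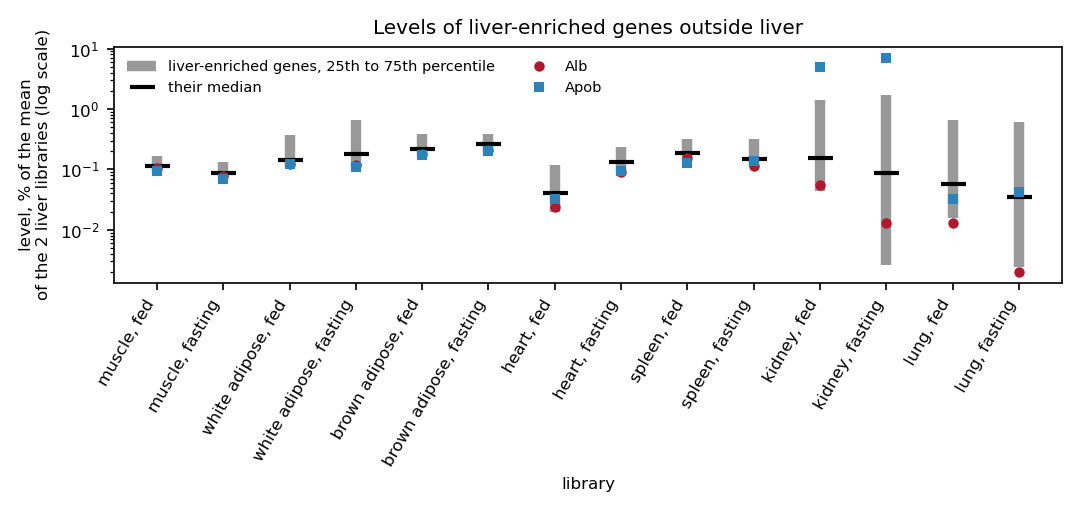
Level of 226 liver-enriched genes in each of the 14 other libraries as a percentage of their mean in liver (log axis), with the middle range as a grey bar, the median as a dash and Alb and Apob as points. Medians lie between 0.0346% and 0.258%, and Apob lies far above the rest in kidney.

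Markers of the other cells of liver were read next. The Kupffer cell genes Clec4f, at 70.8 and 57.1 CPM against 0 to 0.249 CPM, and Vsig4, at 16.2 and 15.8 CPM against 0 to 1.604 CPM, were enriched, Clec4f having passed the filter on low counts only through liver. Of 7 Kupffer markers 6 were called higher than the mean of the 7 tissues, against 27.0% among all genes. Of these, Cd5l, Timd4 and Marco were highest in fasted spleen, at 113, 98.6 and 247 CPM, against at most 69.8, 5.73 and 5.57 CPM in liver. Csf1r was not called, at 60.2 and 49.2 CPM in liver and 781 CPM in fasted spleen. Among the 6, Adgre1 had 14.02 to 16.6 CPM in liver against a median of 16.7 CPM elsewhere, and its log2 difference of 0.39 turned to -0.35 when libraries were scaled by their totals. All 7 markers of sinusoidal endothelium were higher and none was enriched, and Lyve1 lost its call with library totals. Without both spleen libraries 4 of them, Stab2, Clec4g, Oit3 and Dnase1l3, met the rule, while Gpr182 and Lyve1 were highest in fasted lung, at 50.2 and 585 CPM. Stab2, a scavenger receptor, had 160 and 151 CPM in liver and 427 to 522 CPM in spleen. Of 7 stellate cell markers, 6 were higher than the mean of the 7 tissues and none was enriched. Reln stood at 190 and 170 CPM against at most 71.6 CPM, and Colec11 was also above all other libraries. Lrat and Bmp10 were highest in fed lung (62.2 and 56.6 CPM), Hand2 in fed heart (45.7 CPM) and Ecm1 in fed white adipose (108 CPM). Rgs5 was not called, at 46.7 and 51.6 CPM against a median of 254 CPM elsewhere. Of 7 bile duct markers, 3 were higher (Sox9, Tstd1 and Spp1), 1 was lower (Krt7) and Krt19, Epcam and Cftr were not called, against 27.0% higher among all genes. They summed to 42.9 and 26.6 CPM, and Spp1 turned to -1.28 (log2) in the fit with 1 liver term. All 11 tested markers of pancreatic acinar cells, which make digestive enzymes, were also higher in liver, though none was enriched. They summed to 123 and 275 CPM in liver against 0.0646 through a median of 2.31 to 628 CPM, the top value being fed spleen. Besides the 10 that met the rule without spleen, their part in the results above was not tested. The 5 kidney tubule markers summed to 0 and 0.0801 CPM in liver, the 5 adipocyte markers to 32.0 and 42.1 CPM, the 6 skeletal muscle markers to 164 and 142 CPM and the 5 erythroid markers to 280 and 269 CPM. Of the muscle markers, Myh4 was called higher at 1.88 (log2), with 93.3 and 81.4 CPM in liver against a median of 89.0 CPM, while the log2 difference of Myh4 was -7.13 in the fit with 1 liver term. Of the erythroid markers, 4 were lower and Alas2 was higher.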

How the data were processed

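Per the labels and the study's methods, tissue of 3 mice was pooled for each organ and feeding state. RNA from each pool was sequenced as 1 short-read library. Per the submitters' processing notes, the authors used fastp 0.23.2, FastQC 0.11.8, HISAT2 2.2.1.0 and featureCounts (Subread 2.0) with genome build GRCm38. The deposited table holds raw counts per gene for 16 libraries and a gene length. The libraries were strand-specific, but the strand setting of the counting and the handling of reads with several matches are not given in the sources used here, so overlapping, antisense and duplicated genes are uncertain. The table lists 55385 genes, of which 37084 had a count and 55144 were matched to a symbol, and the 37 mitochondrial genes were listed at 0. Gene positions are GRCm38.

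CPM used library totals (14245178 to 36069968 counts), and TPM used the deposited lengths. A floor of 3 counts and all ratios cover counting error only. The test was edgeR 4.0.16 (R 4.3.3, quasi-likelihood, TMM, expression filter by tissue) with 8 tissue terms and a fasting term, 7 residual degrees of freedom and a biological coefficient of variation of 0.219. Liver was tested against the mean of the 7 tissues, and against each, taking the largest of the 7 p-values before Benjamini-Hochberg adjustment. DESeq2 1.42.0 was an alternative. Scripts used Python 3.11.15, numpy 2.4.6, pandas 2.3.3 and matplotlib 3.10.9, and were tested on simulated data. The genes named by rule were the 15 highest ratios in each class (at least 10 CPM in liver, or 5 CPM in all others, with a called test). They also held the 3 list members of highest TPM, members called against their list, enriched transcription factors and isoform pairs. Of the cell type markers, only those of highest liver TPM for each cell type were among them. Other members were chosen as examples after their values were seen. The members and lists were chosen with earlier results of these data known. Promoters and motifs used RefSeq sequences of GRCm38.p6. Some genes are not reported here.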

Additional observations from a re-analysis of the deposited data

How the results depend on the processing

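With 1 library per tissue and feeding state, the spread came only from feeding effects that differ between tissues, so adjusted p-values say nothing of other mice. The libraries of a feeding state share their mice, so the fasting term pairs them, and without it 6113 genes were higher, 5556 lower, 425 enriched and 217 missing. TMM-scaled CPM and the fed and fasted libraries alone were chosen after seeing the data. Enriched genes numbered 286 to 623 over all alternatives. With 1 liver term, 1202 genes were higher and 498 lower. With library totals, 3234 were higher and 11649 lower, 681 stood above and 1739 below all 7 tissues. Genes missing from liver numbered 108 with library totals, 112 with DESeq2 size factors, 108 with TMM-scaled CPM, 453 with a fold of 2, 41 with a fold of 10, 86 with a minimum of 10 CPM, 409 in fed and 421 in fasted libraries alone. Genes below all 7 tissues ranged from 427 (without fasted liver) to 952 (without both spleen libraries) when libraries were left out. Directions turned in 4 of the 185 genes named by rule. The log2 difference of Spp1 was -1.28 and the log2 difference of Myh4 was -7.13 with 1 liver term. The log2 difference of Lgals4 was -0.0176 with library totals, and the log2 difference of Ckm ran from -1.80 to 0.68 over libraries left out. Of the list members, C1qa, C1qb, C1qc, Zbtb20 and Tgfbi, and of the cell markers Adgre1, also turned with library totals. Of 162 calls among the genes named by rule, 82 were lost with 1 liver term and 20 were lost or reversed in any fit with tissue terms. The cause was not tested.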
